A study of Caenorhabditis elegans with 18 samples.

Results

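The comparison described here is between adult and L4 larval animals of Caenorhabditis elegans that carry the allele hira-1(gk835598), written hira-1(-). L4 is the last larval stage, just before the molt to the adult. The members are the libraries whose labels give hira-1(-) and either of those stages, and whose column in the deposited table could be matched to the label, 4 of the 18 samples of the series. They are replicates 1 and 2 of the L4 group and replicates 1 and 2 of the adult group, from strain MT23643. The series also holds the wild-type strain N2, and 4 N2 libraries, 2 at L4 and 2 in adults, share the statistical fit and are used only to show where the mutant differs. All groups were grown at 20°C on plates with the E. coli strain OP50. The series calls the mutant a null. Neither the adults' age in hours nor the origin of the replicates (separate cultures or 1) is stated, so the p-values cover the spread among these libraries alone, and that spread may be technical. The labels give L4 without a time within that stage.

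HIRA is a histone chaperone that places the histone variant H3.3 into chromatin outside DNA replication. Between L4 and adulthood the hermaphrodite sheds its last larval cuticle, its germ line stops making sperm and makes oocytes, the intestine produces yolk, and embryos start to develop in the uterus. RNA came from whole animals after poly(A) selection, so each value is an average over all tissues, oocytes and any embryos inside the adults. Levels are given as CPM (estimated counts scaled to a common TMM-adjusted library size), in the order replicate 1, replicate 2. Changes are log2 fold changes of adults minus L4, so positive values are higher in adults, each with its standard error (SE) and the adjusted p of edgeR's quasi-likelihood test; a gene is called at an adjusted p below 0.05.

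The 4 libraries held between 26010300 and 27590300 estimated counts. Ribosomal RNA genes took 2.91% and 2.26% of the counts at L4 and 0.702% and 0.392% in adults, so this share moved with the stage; without these genes 12462 of 16762 genes were called. The hira-1 transcript was present in all libraries of the mutant, at 23.7 and 25.29 CPM at L4 and 40.6 and 40.02 CPM in adults (log2 fold change 0.72, SE 0.069, adjusted p = 5.2e-07). Its adult libraries were both above its L4 libraries. In N2 the same gene was at 37.4 and 32.9 CPM at L4 and 108 and 109 CPM in adults. A transcript level tests neither the allele nor the protein, so this value does not check the genotype label.

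Passage from L4 to adult changed most of the measured genes in hira-1(-) animals. Of 16770 genes tested, 12471 were called, 74.4%, of which 6030 (36.0%) were higher and 6441 (38.4%) were lower in adults. Which direction held more genes depended on the processing: there were 6216 higher and 6124 lower with RLE scaling, 5703 and 5269 with DESeq2, and 5573 and 7026 with library totals. At least 2-fold, 2386 were higher and 3812 lower. At least 16-fold, the order was the other way, with 319 higher and 250 lower. Over all genes the median log2 fold change lay at -0.078 (interquartile range -0.92 to 0.63); it was -0.172 with library totals and -0.037 with RLE scaling. The libraries of the stages did not overlap for 14776 genes, 88.1%. These shares are the background for the gene lists below. Listed oocyte, cell cycle and yolk genes mostly rose, and sperm, molting and body-shape collagen genes mostly fell.

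**Figure D1:**
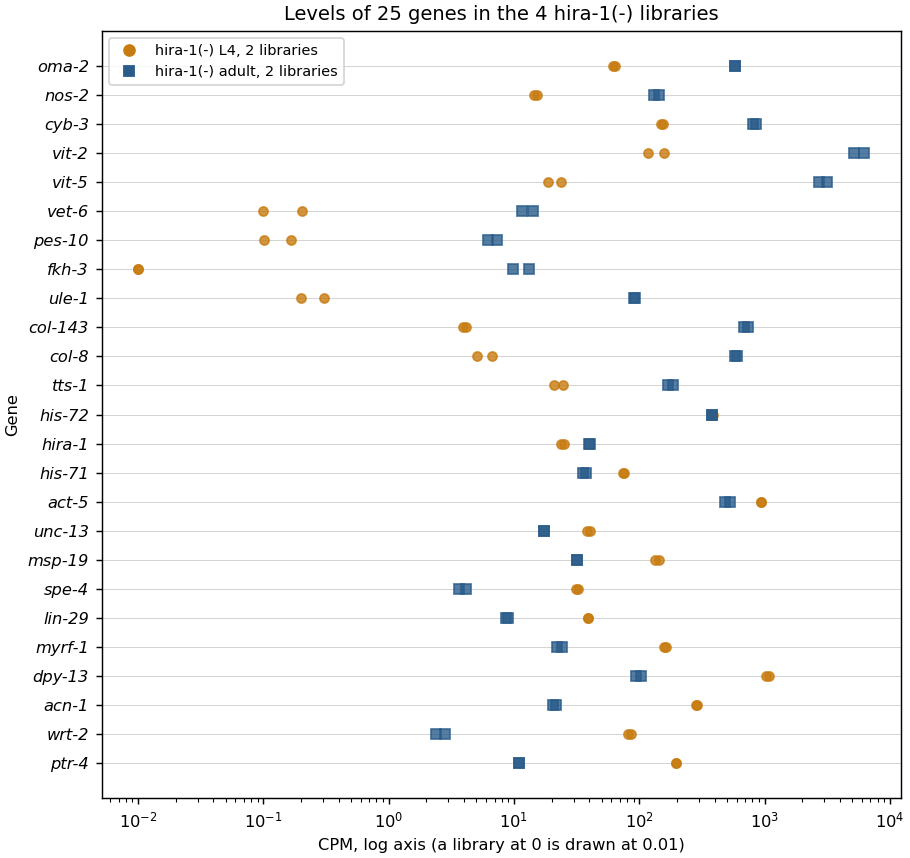
CPM on a log axis of 25 genes (vertical axis) in the 4 hira-1(-) libraries, with circles for L4 and squares for adults. The plot shows oma-2 with 61.9 and 64.4 CPM at L4 and 584 and 576 CPM in adults, wrt-2 moving the other way, and his-72 with its stages on top of each other.

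The genes with the steepest rises among those named by size had varied known roles. The uterine lumen gene ule-1 was at 0.304 and 0.198 CPM at L4 and 91.7 and 91.6 CPM in adults (log2 fold change 8.49, SE 0.11, adjusted p = 1.0e-14). Cuticle collagen gene col-135 was at 0.169 and 0.0991 CPM at L4 and 42.2 and 46.3 CPM in adults (log2 fold change 8.32, SE 0.15, adjusted p = 1.2e-13). The collagen gene col-95 was at 0.609 and 0.495 CPM at L4 and 169.9 and 155 CPM in adults (log2 fold change 8.19, SE 0.21, adjusted p = 8.1e-09). In all of these genes the adult libraries were far above the L4 libraries, which held under 1 CPM. A forkhead transcription factor gene, fkh-3, had no count in either L4 library and was at 0 and 0 CPM at L4 and 13.2 and 9.91 CPM in adults, which is at least 115-fold higher against a floor of 3 counts per library. The Notch-ligand family gene dsl-2 was at 0 and 0.03302 CPM at L4 and 6.53 and 6.25 CPM in adults (log2 fold change 8.23, SE 0.47, adjusted p = 2.6e-09). The gene sdz-30, of a group named for zygotic expression that depends on the SKN-1 factor, was at 0 and 0.03302 CPM at L4 and 6.64 and 4.296 CPM in adults (log2 fold change 8.01, SE 0.54, adjusted p = 3.0e-08). The Skp1-related gene skr-8 was at 0.0338 and 0.03302 CPM at L4 and 7.49 and 6.07 CPM in adults (log2 fold change 7.48, SE 0.55, adjusted p = 4.5e-07). In these low genes the L4 levels rest on few counts, so the size of the rise is imprecise. Separate stages were a condition for naming genes by size, so their separation is no support of its own. The near-identical genes pes-2.1 and pes-2.2 have the same values, so their reads cannot be told apart, with 0.0676 and 0.06604 CPM at L4 and 14.98 and 12.3 CPM in adults (log2 fold change 7.58, SE 0.30, adjusted p = 9.8e-11). Among genes known only by a sequence name, C10G8.4 was at 0.135 and 0.06604 CPM at L4 and 24.3 and 24.4 CPM in adults (log2 fold change 7.86) and F56D5.5 at 0.0338 and 0 CPM at L4 and 5.896 and 5.28 CPM in adults (log2 fold change 8.04).

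The genes with the steepest falls among those named by size were also varied. The warthog gene wrt-2, one of the hedgehog-related genes, was at 85.8 and 81.5 CPM at L4 and 2.41 and 2.83 CPM in adults (log2 fold change -4.996, SE 0.19, adjusted p = 4.3e-08). The lipocalin-related gene lpr-5, needed for the matrix that lines the epidermis and tubes, was at 180.3 and 184 CPM at L4 and 6.34 and 6.56 CPM in adults (log2 fold change -4.82, SE 0.18, adjusted p = 2.7e-07). Its neighbour in name, lpr-4, was at 201 and 196 CPM at L4 and 7.305 and 7.46 CPM in adults (log2 fold change -4.75, SE 0.20, adjusted p = 1.5e-06). The gene osm-8, which encodes a secreted mucin-like protein of the epidermis, was at 35.4 and 32.5 CPM at L4 and 0.927 and 1.58 CPM in adults (log2 fold change -4.76, SE 0.18, adjusted p = 1.7e-10). Every L4 library of these genes lay at least 10-fold above every adult library, but separate stages were a condition for naming them. The molting gene mlt-11, which encodes a protein with protease inhibitor domains, was at 294 and 476 CPM at L4 and 12.7 and 16.7 CPM in adults (log2 fold change -4.71, SE 0.32, adjusted p = 1.3e-04), and its L4 libraries lay further apart than those of the other genes. The bZIP factor gene atf-8 was at 14.2 and 12.8 CPM at L4 and 0.185 and 0.603 CPM in adults (log2 fold change -5.09, SE 0.35, adjusted p = 2.2e-07). Falls of similar size were found for gtnt-13 (-5.06), col-128 (-5.01), idpp-1 (-4.84), dpy-8 (-4.72), col-47 (-4.71) and nhr-245 (-4.697), all as log2 fold changes. The sequence-named gene F22B5.5 was at 7.27 and 8.09 CPM at L4 and 0 and 0 CPM in adults, at least 68.5-fold lower in adults, while in N2 it was at 2.41 and 0.955 CPM at L4 and 1.63 and 2.62 CPM in adults. F47B3.6 was at 4.498 and 6.93 CPM at L4 and 0.148 and 0 CPM in adults (log2 fold change -6.17, SE 0.76, adjusted p = 1.8e-04).

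Genes of oocytes and the eggshell rose. All 32 of 32 listed genes were called higher, against 36.0% of all genes, with a median log2 fold change of 2.32. The gene oma-2, whose zinc finger protein is required for oocytes to mature, was at 61.9 and 64.4 CPM at L4 and 584 and 576 CPM in adults (log2 fold change 3.1995, SE 0.064, adjusted p = 2.8e-13). The nanos-related gene nos-2, which acts in primordial germ cells from maternal RNA, was at 14.5 and 15.2 CPM at L4 and 143.2 and 131 CPM in adults (log2 fold change 3.204, SE 0.069, adjusted p = 5.3e-13). The gene spn-4, for a maternal RNA-binding protein, was at 147 and 149 CPM at L4 and 887 and 821 CPM in adults (log2 fold change 2.53, SE 0.057, adjusted p = 6.9e-13). The gene egg-2, for an oocyte surface protein needed at fertilization, was at 32.03 and 33.3 CPM at L4 and 214 and 220.4 CPM in adults (log2 fold change 2.73, SE 0.062, adjusted p = 7.0e-13). For each of these genes the stages were separate and the replicates close. In whole animals, fewer cells of a type and less RNA per cell cannot be told apart. The list's N2 median was 4.23, and 30 of the 32 genes had a smaller rise in hira-1(-) by the test of the difference, which called 29.7% of all genes in that direction. The summed level of the list was 3696 and 3842 CPM at L4 and 18450 and 19090 CPM in adults of hira-1(-), and 1306 and 1087 CPM at L4 and 17920 and 18660 CPM in adults of N2, so the adult levels of the genotypes were close and the mutant's L4 level was the higher.

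Cell division genes moved with the oocyte genes. Of the cell cycle and replication list, 42 of 42 rose and 0 fell, with a median of 1.29. The gene cyb-3, for the mitotic cyclin B3, was at 149 and 154 CPM at L4 and 851 and 814 CPM in adults (log2 fold change 2.45, SE 0.054, adjusted p = 5.8e-13). Both cyb-2.1 and cyb-2.2, further B-type cyclin genes, rose, by 1.91 and 2.17. The replication licensing gene mcm-3 was at 90.002 and 93.2 CPM at L4 and 332 and 318 CPM in adults (log2 fold change 1.83, SE 0.052, adjusted p = 5.6e-12). Of the DNA damage and apoptosis list, 23 of 24 rose and 0 fell, among them the caspase gene ced-3 (1.63), the Bcl-2-related gene ced-9 (1.48), the mismatch repair gene mlh-1 (1.37) and the DNA ligase gene lig-1 (1.28). The other germ-line list, with genes of germ-cell fate, meiosis and P granules, gave a smaller median of 0.78, and 42 of 46 rose and 3 fell. The Notch receptor gene glp-1, which keeps germ stem cells dividing, was at 96.6 and 99.4 CPM at L4 and 228 and 227 CPM in adults (log2 fold change 1.21, SE 0.049, adjusted p = 1.2e-10). Its stages were separate, as were those of gld-3 (1.61), which acts in the choice between mitosis and meiosis, of the meiosis gene daz-1 (1.18), and of mes-4 (1.16), a histone methyltransferase gene of the germ line.

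Yolk genes rose from low to high levels. All 6 vitellogenin genes rose, with a median of 5.43; vitellogenins are yolk proteins made by the adult intestine and taken up by oocytes. The gene vit-5 was at 23.9 and 18.6 CPM at L4 and 2708 and 3129.9 CPM in adults (log2 fold change 7.103, SE 0.37, adjusted p = 3.1e-05). The gene vit-2 was at 118 and 156 CPM at L4 and 5199 and 6256 CPM in adults (log2 fold change 5.38, SE 0.40, adjusted p = 2.0e-04). The gene vit-6 was at 254 and 316 CPM at L4 and 5258 and 6474 CPM in adults (log2 fold change 4.36, SE 0.27, adjusted p = 3.5e-05). The adult libraries lay far above the L4 libraries for each, and replicate 2 was the higher of the adult libraries. The other members, vit-3 (5.47), vit-4 (5.91) and vit-1 (4.13), also rose; they are alike in sequence, so reads may be divided between them. Against N2, the rise was larger in hira-1(-) for vit-3 (difference 1.53, adjusted p = 0.004) and vit-4 (difference 0.91, adjusted p = 0.014), and smaller for vit-1 (difference -0.98, adjusted p = 0.022). The levels themselves were lower in the mutant at both stages: summed over the list, 555 and 656 CPM at L4 and 18640 and 22230 CPM in adults, against 2303 and 1549 CPM and 52070 and 43830 CPM in N2.

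Genes first expressed by the embryo's own genome, taken as markers of embryos inside the adults, were mostly near 0 at L4 and low in adults, with die-1 as an exception. Of 29 listed genes 16 passed the filter on low values. All of those were called higher, which the filter favours, since genes so near 0 at L4 could pass only through the adults. The gene vet-2 was at 1.01 and 0.892 CPM at L4 and 21.2 and 18.1 CPM in adults (log2 fold change 4.36, SE 0.16, adjusted p = 6.3e-11). The gene vet-6 was at 0.203 and 0.0991 CPM at L4 and 14.3 and 11.6 CPM in adults (log2 fold change 6.38, SE 0.27, adjusted p = 5.8e-10), and pes-10 at 0.101 and 0.165 CPM at L4 and 7.305 and 6.25 CPM in adults (log2 fold change 5.62, SE 0.30, adjusted p = 1.6e-09). Both adult libraries lay above both L4 libraries in each gene. The whole list summed to 41.2 and 43.3 CPM at L4 and 136 and 121 CPM in adults, and the largest single share was die-1, at 37.04 and 39.5 CPM at L4 and 55.3 and 53.1 CPM in adults. Each L4 library had 11 of the 29 genes at 0, and the adult libraries had 1 and 0. The endoderm genes end-1 and end-3 stayed under 0.3 CPM in every hira-1(-) library, and med-1 and med-2 under 0.04 CPM. How much of the rise of oocyte and cell cycle genes came from embryos was not tested.

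Most listed sperm genes fell steeply. Of 35 genes for major sperm protein, the cytoskeletal motor material of nematode sperm, 32 were tested and all 32 were called lower, against 38.4% of all genes, with a median of -2.26. Their log2 fold changes ran from -5.64 to -1.94. Their sequences are nearly identical, so reads may be divided between copies, and values of single genes and their likeness are uncertain. The gene msp-19 was at 142.7 and 134 CPM at L4 and 31.8 and 31.8 CPM in adults (log2 fold change -2.12, SE 0.063, adjusted p = 7.4e-12). The gene msp-64 was at 83.6 and 87.8 CPM at L4 and 15.3 and 16.1 CPM in adults (log2 fold change -2.45, SE 0.066, adjusted p = 3.0e-12). Both L4 libraries were more than 4-fold above both adult libraries for each. Of 52 other sperm genes tested 1 rose and 49 fell, with a median of -2.33. The presenilin-related gene spe-4, which acts in sperm organelles, was at 32.4 and 31.6 CPM at L4 and 3.67 and 4.14 CPM in adults (log2 fold change -3.03, SE 0.10, adjusted p = 1.7e-11). The sperm protein phosphatase genes gsp-3 (-2.52) and gsp-4 (-2.35) and the MSP-domain gene msd-4 (-2.04) fell too. 

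In N2 most major sperm protein genes rose instead. Their median log2 fold change was 0.70, with 24 genes called higher and 3 lower, and the difference between the genotypes was called for 29 of 32, each more negative in hira-1(-). The summed level of the list was 2465 and 2505 CPM at L4 and 522 and 561 CPM in adults of hira-1(-), and 1289 and 1125 CPM at L4 and 1817 and 2003 CPM in adults of N2. The mutant was thus above N2 at L4 and below it in adults, with no overlap at either stage. Of the other sperm genes, 33 had a more negative and 3 a more positive stage change than in N2, whose median was -0.97. Of 11 listed male genes, 7 were tested, 1 rose and 3 fell. The male tail regulator gene mab-3 was at 7.68 and 8.49 CPM at L4 and 0.8899 and 1.54 CPM in adults, and klp-6, a kinesin gene of male neurons, at 1.35 and 1.16 CPM at L4 and 0.742 and 0.603 CPM in adults. The gene that rose was her-1, which promotes male fates, at 0.169 and 0.264 CPM at L4 and 1.41 and 1.17 CPM in adults (log2 fold change 2.54, SE 0.42, adjusted p = 1.0e-04). In N2 her-1 was not called (log2 fold change -0.44, adjusted p = 0.49), and the difference was called (2.99, adjusted p = 0.0042). For the 3 falls, of mab-3, klp-6 and dmd-3, the difference from N2 was not called (adjusted p = 0.98, 0.53 and 0.85). The male neuron genes lov-1, cwp-2 and pkd-2 stayed under 0.4 CPM in all hira-1(-) libraries, cwp-4 was at 1.08 and 1.02 CPM at L4, and the list summed to 11.8 and 12.9 CPM at L4 and 4.71 and 5.05 CPM in adults.

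**Figure D2:**
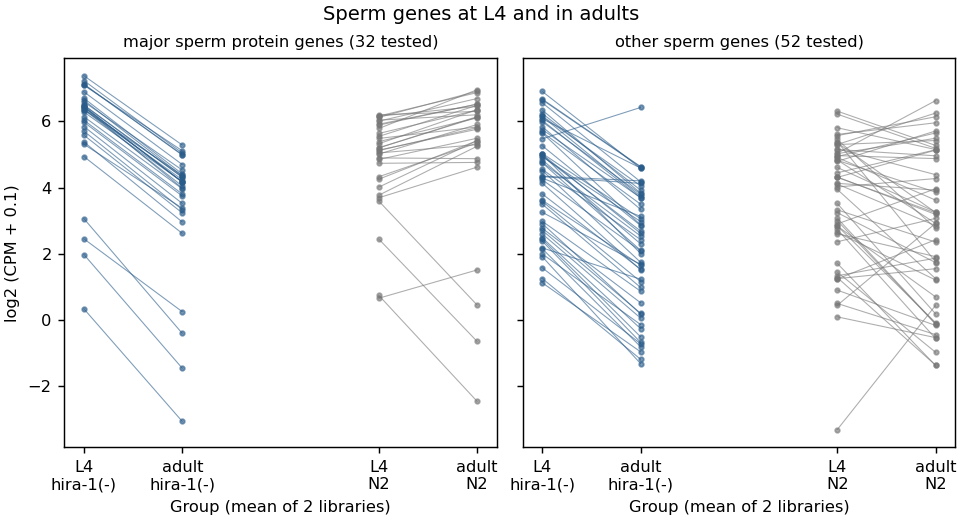
Mean log2 (CPM + 0.1) of each tested major sperm protein gene (left, 32 genes) and other sperm gene (right, 52 genes) at L4 and in adults, 1 line per gene, hira-1(-) in blue and N2 in grey. All 32 blue lines on the left go down, while 24 of the grey lines belong to genes called higher in N2 adults.

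Genes of the larval cuticle and the molt fell. Of 20 body-shape collagens, whose mutants are dumpy, squat, rolling or blistered, 2 of 20 rose and 18 fell, with a median of -4.14. The gene dpy-13 was at 1027 and 1079 CPM at L4 and 94.9 and 103 CPM in adults (log2 fold change -3.41, SE 0.074, adjusted p = 5.3e-13). The collagen gene sqt-1 was at 438 and 440.3 CPM at L4 and 24.6 and 26.9 CPM in adults (log2 fold change -4.09, SE 0.071, adjusted p = 1.1e-13). The gene dpy-5 was at 886 and 879.6 CPM at L4 and 87.7 and 84.4 CPM in adults (log2 fold change -3.36, SE 0.063, adjusted p = 1.7e-13). The adult libraries of these genes were all well below the L4 libraries but did not come near 0. The stage change was called more positive in hira-1(-) than in N2 for 18 of the 20 genes, against 20.7% of all genes. These 18 include dpy-14, which did not fall in hira-1(-). The N2 median was -7.62. In N2, dpy-13 was at 2842 and 2632 CPM at L4 and 8.56 and 9.76 CPM in adults (log2 fold change -8.22). The difference for dpy-13 was 4.81 (adjusted p = 5.0e-12), with N2 higher at L4 and lower in adults. An exception on the list was the collagen gene dpy-14, at 0.4397 and 0.495 CPM at L4 and 6.19 and 3.88 CPM in adults (log2 fold change 3.42, SE 0.31, adjusted p = 2.9e-07), a rise not called in N2 (adjusted p = 0.92).

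The larger col family of cuticle collagens divided by gene. Of 159 listed, 141 were tested, and 34 rose and 77 fell. Among those that fell, col-175 was at 514 and 496 CPM at L4 and 52.1 and 50.9 CPM in adults (log2 fold change -3.29, SE 0.061, adjusted p = 1.6e-13), and col-38 at 776 and 757 CPM at L4 and 82.5 and 85.5 CPM in adults (log2 fold change -3.19, SE 0.06, adjusted p = 1.7e-13). Among those that rose, col-143 was at 4.16 and 3.93 CPM at L4 and 735 and 680.1 CPM in adults (log2 fold change 7.45, SE 0.088, adjusted p = 1.0e-14), and col-8 at 6.66 and 5.09 CPM at L4 and 602 and 579.8 CPM in adults (log2 fold change 6.65, SE 0.16, adjusted p = 2.5e-09). In each the stages were fully apart, in opposite directions. The summed level of the list went from 28850 and 28280 CPM at L4 to 32660 and 32110 CPM in adults. The difference from N2 was more positive in hira-1(-) for 78 genes and more negative for 14. The rises of col-143 and col-8 were smaller than in N2: col-143 differed by -2.68 (adjusted p = 3.2e-08) and col-8 by -3.18 (adjusted p = 2.5e-05), while for col-95 the difference was not called (adjusted p = 0.18).

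**Figure D3:**
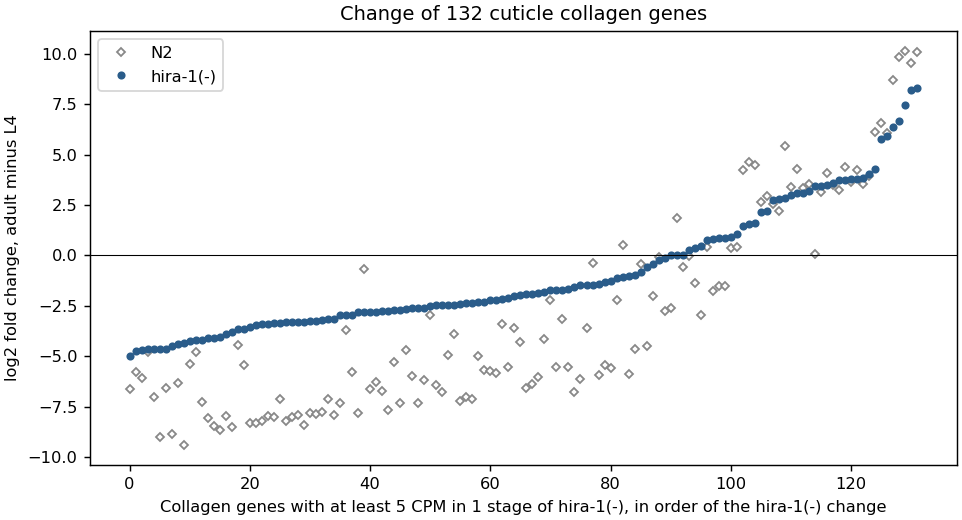
Log2 fold change of adults minus L4 for 132 collagen genes with at least 5 CPM in 1 stage of hira-1(-), ordered along the horizontal axis by the hira-1(-) change (filled circles), with N2 as open diamonds. The N2 value lies further from 0 than the hira-1(-) value for 114 of the 132 genes.

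Other genes of the molt behaved alike. Of the molting list 1 of 31 rose and 26 fell, with a median of -2.83. The gene acn-1, which encodes an ACE-like protein without peptidase activity that is needed for molting, was at 287 and 286 CPM at L4 and 20.5 and 21.6 CPM in adults (log2 fold change -3.77, SE 0.056, adjusted p = 2.8e-14). The gene mlt-10 was at 269 and 283 CPM at L4 and 18.1 and 22.2 CPM in adults (log2 fold change -3.78, SE 0.08, adjusted p = 5.3e-13). The membrane-bound transcription factor gene myrf-1, which drives larval transitions, was at 156 and 165 CPM at L4 and 21.95 and 23.96 CPM in adults (log2 fold change -2.81, SE 0.061, adjusted p = 5.3e-13), and lrp-1, a megalin-related receptor gene, fell by 1.91 on the log2 scale. Both adult libraries lay below both L4 libraries for all of these. Cuticlin-like genes gave 1 rise and 27 falls among 32 tested, with cutl-28 (-3.81), cutl-18 (-3.21), cutl-6 (-3.21) and cutl-15 (-2.19) among the falls. Astacin proteases, secreted enzymes that cut the old cuticle and other matrices, divided: 6 of 32 rose and 18 fell. The molt enzyme gene nas-37 was at 139 and 132 CPM at L4 and 26.2 and 29.7 CPM in adults (log2 fold change -2.27, SE 0.075, adjusted p = 4.1e-11), and nas-4 (-2.14) and nas-14 (-2.297) fell, while nas-20 was at 0.7103 and 0.561 CPM at L4 and 8.82 and 10.3 CPM in adults (log2 fold change 3.902, SE 0.17, adjusted p = 1.8e-10).

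Hedgehog-related and patched-related genes, which in the worm act mostly in cuticle and epithelia, fell with the molt. Of 61 hedgehog-related genes 43 were tested, 5 rose and 30 fell, with a median of -2.56. The groundhog gene grd-2 was at 34.3 and 36.3 CPM at L4 and 2.63 and 2.49 CPM in adults (log2 fold change -3.78, SE 0.10, adjusted p = 2.9e-12), and the ground-like gene grl-5 at 150.1 and 153 CPM at L4 and 9.05 and 11.3 CPM in adults (log2 fold change -3.896, SE 0.077, adjusted p = 2.7e-13). Also grd-1 (-3.63) and grl-10 (-2.74) fell. Among patched-related genes, which encode sterol-sensing membrane proteins, 4 rose and 22 fell of 29. The gene ptr-4 was at 197 and 196 CPM at L4 and 10.98 and 10.9 CPM in adults (log2 fold change -4.16, SE 0.078, adjusted p = 1.7e-13), and ptr-18 (-3.49) and ptr-11 (-2.35) fell. By contrast ptc-1, the patched gene that acts in germ-line cytokinesis, was at 234.9 and 247 CPM at L4 and 752 and 744 CPM in adults (log2 fold change 1.64, SE 0.052, adjusted p = 1.5e-11). Stages did not overlap in any of these genes. Against N2, 28 hedgehog-related genes had a more positive and 5 a more negative change; for grl-5 the difference was 4.62 (adjusted p = 2.8e-10).

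Most genes of the pharyngeal cuticle list changed less in the mutant than in N2. The abu genes encode glutamine- and asparagine-rich secreted proteins of the pharynx. Of 13 tested, 3 fell and 0 rose in hira-1(-), with a median of -0.13, where 12 fell in N2, with a median of -5.17. Summed over the 15 listed genes, the hira-1(-) level did fall, from 334 and 332 CPM at L4 to 112 and 126 CPM in adults. In N2 the sum went from 912 and 653 CPM at L4 to 6.1 and 7.28 CPM in adults. The difference was called for 11. Among them abu-2 had counts of 0 and 0 at L4 and 2 and 1 in adults of hira-1(-), so it could not fall there. The gene abu-13 was at 105 and 112 CPM at L4 and 7.75 and 9.12 CPM in adults (log2 fold change -3.68, SE 0.079, adjusted p = 5.3e-13), and abu-14 at 93.1 and 83.6 CPM at L4 and 21.6 and 26.1 CPM in adults (log2 fold change -1.89, SE 0.33, adjusted p = 0.0059), both with separate stages. The gene abu-1 was at 12.4 and 9.25 CPM at L4 and 10.8 and 10.2 CPM in adults, where the stages overlapped (adjusted p = 0.93), while in N2 it was at 31.04 and 16.9 CPM at L4 and 0 and 0.287 CPM in adults. Likewise idpc-3 was at 14.1 and 12.9 CPM at L4 and 7.64 and 8.82 CPM in adults (adjusted p = 0.076) in hira-1(-) and at 34.5 and 18.4 CPM at L4 and 0.209 and 0.179 CPM in adults in N2, and pqn-63 was at 10.4 and 8.62 CPM at L4 and 3.08 and 3.05 CPM in adults in hira-1(-) and at 26.03 and 14.8 CPM at L4 and 0.125 and 0.108 CPM in adults in N2. The N2 replicates at L4 stood more than 1.5-fold apart for abu-1, abu-14, idpc-3 and pqn-63. The pharynx markers phat-1 (-2.06), phat-2 (-1.74) and phat-4 (-1.63) and the pharyngeal organ identity gene pha-4 (-0.64) fell in hira-1(-), among 8 falls and 0 rises of 14.

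Markers of muscle, neurons and intestine fell more often than they rose, by smaller amounts. Of body wall muscle genes 2 of 33 rose and 29 fell, with a median of -0.75. The troponin I gene tni-1 was at 145 and 139.7 CPM at L4 and 49.8 and 54.3 CPM in adults (log2 fold change -1.45, SE 0.058, adjusted p = 1.1e-10), and the body wall muscle gene dim-1 was at 448 and 435 CPM at L4 and 219 and 221 CPM in adults (log2 fold change -1.01, SE 0.064, adjusted p = 7.5e-09); alp-1 (-0.85) and unc-97 (-0.81), genes of the muscle attachment sites, fell as well. Of neuron genes 3 of 29 rose and 22 fell, with a median of -0.61, and the synaptic vesicle priming gene unc-13 was at 38.2 and 40.7 CPM at L4 and 17.2 and 17.4 CPM in adults (log2 fold change -1.19, SE 0.084, adjusted p = 2.1e-08). The touch neuron tubulin gene mec-12 (-0.97) and the dense-core vesicle gene ida-1 (-0.74) fell, and unc-11, an endocytic clathrin adaptor gene, rose (0.53). Of cilium genes 0 of 26 rose and 11 fell, with a median of -0.80. The share that fell was near the 38.4% of all genes, while 36.0% of all genes rose. The seam and epidermis list had no common direction, with 4 rises and 3 falls among 10, and the GATA factor gene egl-18 rose (2.21). Of intestine genes 1 of 19 rose and 12 fell, with a median of -0.46. The intestinal actin gene act-5 was at 938 and 941 CPM at L4 and 482 and 534 CPM in adults (log2 fold change -0.89, SE 0.066, adjusted p = 3.6e-08), and the gut esterase gene ges-1 (-1.02), the phosphatase gene pho-1 (-1.03) and the protease gene cpr-6 (-0.59) fell. The stages did not overlap in these genes. CPM are shares of a library, so the rise of germ-line RNA and the fall of somatic RNA are not independent measurements.

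Genes that time the larva-to-adult switch and shape the vulva and gonad changed as well. The heterochronic genes, which set stage-specific fates, gave 5 rises and 8 falls among 14. The zinc finger gene lin-29, which triggers adult fates in the epidermis, was at 38.96 and 38.8 CPM at L4 and 8.94 and 8.704 CPM in adults (log2 fold change -2.14, SE 0.085, adjusted p = 1.0e-10). Its cofactor gene mab-10 was at 52.1 and 56.99 CPM at L4 and 13.4 and 12.1 CPM in adults (log2 fold change -2.097, SE 0.085, adjusted p = 1.2e-10), and the Argonaute gene alg-1, which acts with microRNAs, fell (-0.73). The RNA-binding gene lin-28 was at 28.99 and 31.9 CPM at L4 and 63.3 and 63.3 CPM in adults (log2 fold change 1.06, SE 0.067, adjusted p = 7.1e-09). No stage overlap was seen in these genes, and for lin-29 and mab-10 the difference from N2 was not called (adjusted p = 0.19 and 0.81). Of vulva and gonad morphogenesis genes 4 of 24 rose and 18 fell. The netrin gene unc-6 (-1.67) and the gonad-shaping metalloprotease gene gon-1 (-1.01) fell, and the netrin receptor gene unc-40 (0.84) rose. The EGF gene lin-3, the anchor cell's vulval signal, was at 21.5 and 20.7 CPM at L4 and 62.8 and 59.5 CPM in adults (log2 fold change 1.54, SE 0.066, adjusted p = 2.1e-10). Among developmental signalling genes, 11 rose and 14 fell of 27. The rises included the PI3-kinase gene age-1 (1.05), the Wnt gene mom-2 (2.18) and the frizzled gene mom-5 (1.27).

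**Figure D4:**
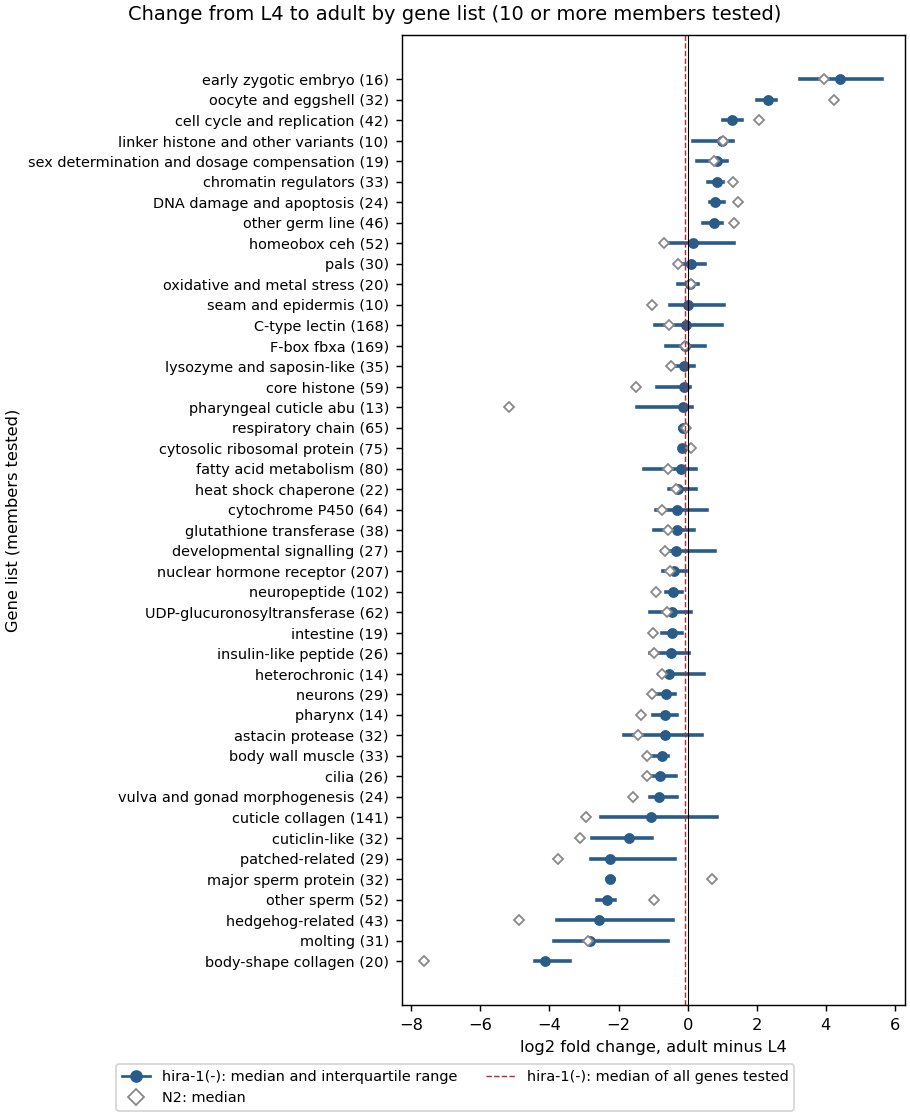
Median (circle) and interquartile range (bar) of the log2 fold change of adults minus L4 in hira-1(-) for the 44 gene lists with 10 or more tested members, with the N2 median as an open diamond and the median of all genes as a dashed line. Oocyte and eggshell genes lie at 2.32 and body-shape collagens at -4.14, and the major sperm protein list has its hira-1(-) median at -2.26 and its N2 median at 0.70.

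Ribosomal protein and respiratory genes shifted slightly. Of 75 cytosolic ribosomal protein genes 1 rose and 49 fell, with a median of -0.17 (-0.265 with library totals and -0.129 with RLE scaling), beside -0.078 for all genes. The difference from N2 was called for 50 genes, all more negative in hira-1(-). The germ-line paralogue rpl-11.1 was at 977 and 958 CPM at L4 and 1256 and 1296 CPM in adults (log2 fold change 0.40, SE 0.058, adjusted p = 2.8e-05), and its paralogue rpl-11.2 at 1204 and 1092 CPM at L4 and 648 and 676 CPM in adults (log2 fold change -0.79, SE 0.065, adjusted p = 9.5e-08), so the pair moved in opposite directions. Of the genes with the highest FPKM (fragments scaled by gene length and depth) at either stage, the elongation factor gene eef-1A.1 was at 9442 and 9591 CPM at L4 and 10214 and 10942 CPM in adults (log2 fold change 0.15, SE 0.065, adjusted p = 0.049), a call that is lost when any 1 of the hira-1(-) libraries or N2 L4 replicate 1 is left out, and with library totals. Of 65 respiratory chain genes 7 rose and 36 fell. The cytochrome c gene cyc-2.2 was at 40.3 and 41.6 CPM at L4 and 8.79 and 8.67 CPM in adults (log2 fold change -2.23, SE 0.10, adjusted p = 3.4e-10). The ATP synthase gene asb-2 (-0.81), the complex I gene gas-1 (-0.77) and ucr-2.2 (-0.70), a complex III gene, fell with separate stages.

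Lipid and stress genes went both ways. Of fatty acid metabolism genes 23 of 80 rose and 41 fell. The elongase gene elo-4 was at 39.6 and 39.3 CPM at L4 and 3.89 and 4.63 CPM in adults (log2 fold change -3.21, SE 0.12, adjusted p = 4.6e-11). The fatty acid activation genes acs-10 (-2.65) and acs-20 (-2.39) and the acyl-CoA dehydrogenase gene acdh-8 (-2.58) fell. Among lysosomal lipases, lipl-1 was at 9.81 and 10.96 CPM at L4 and 21.6 and 22.4 CPM in adults (log2 fold change 1.08, SE 0.12, adjusted p = 1.7e-06), where N2 was at 11.4 and 14.3 CPM at L4 and 7.18 and 6.5998 CPM in adults. The stages were separate in both genotypes, in opposite directions (difference 1.98, adjusted p = 1.2e-06). The related lipl-2 rose in hira-1(-) (0.91) with a difference from N2 of 1.697 (adjusted p = 2.1e-06), while lipl-4 (-2.61) and lipl-6 (-3.92) fell. The lysozyme gene lys-7, induced by some bacteria, was at 108 and 109 CPM at L4 and 215 and 195 CPM in adults (log2 fold change 0.92, SE 0.055, adjusted p = 4.1e-09), and its change was opposite to N2 (log2 fold change -0.35; difference 1.27, adjusted p = 6.3e-08). The saposin-like gene spp-13 was at 46.7 and 50.7 CPM at L4 and 2.67 and 2.52 CPM in adults (log2 fold change -4.23, SE 0.11, adjusted p = 3.3e-12). Of heat shock and chaperone genes 6 of 22 rose and 11 fell. The cytosolic chaperone gene hsp-90 was at 2266 and 2185 CPM at L4 and 3047 and 3120.2 CPM in adults (log2 fold change 0.47, SE 0.057, adjusted p = 5.4e-06), and hsp-43 rose (1.495), while the endoplasmic reticulum chaperone gene hsp-3 (-0.81) and the small heat shock gene hsp-17 (-1.01) fell.

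Histone chaperone and chromatin genes rose with the germ-line genes. All 8 histone chaperone genes on the list were called higher, with a median of 0.97, and all 8 rose by less than in N2. The CAF-1 gene chaf-1, for the complex that deposits H3 at replication, was at 46.3 and 44.2 CPM at L4 and 118 and 112 CPM in adults (log2 fold change 1.34, SE 0.052, adjusted p = 8.8e-11). The ASF1 gene asfl-1 was at 30.7 and 31.4 CPM at L4 and 71.3 and 69.9 CPM in adults (log2 fold change 1.18, SE 0.057, adjusted p = 5.8e-10). The others were rba-1 (1.16), lin-53 (1.11), chaf-2 (0.82), unc-85 (0.81), hira-1 itself and xnp-1, the ATRX homologue. The xnp-1 gene was at 95.2 and 94.5 CPM at L4 and 107 and 111 CPM in adults (log2 fold change 0.20, SE 0.053, adjusted p = 0.0039), and its call is lost with library totals (adjusted p = 0.104) and with limma on log2 FPKM (adjusted p = 0.171). Of FACT and NAP genes, which hand histones to chromatin during transcription and replication, hmg-4 (1.201), hmg-3 (0.999) and spt-16 (0.77) rose, and nap-1 was at 786 and 759.7 CPM at L4 and 796 and 775 CPM in adults (adjusted p = 0.72), with overlapping stages. Of chromatin regulators 30 of 33 rose and 2 fell, with the DRM complex genes lin-54 (1.35), lin-37 (1.25), efl-1 (1.46) and dpl-1 (1.26) among the rises.

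The H3.3 genes themselves did not move together. The gene his-72 was at 387 and 379 CPM at L4 and 379.7 and 380.01 CPM in adults (log2 fold change -0.011, SE 0.053, adjusted p = 0.86). Its libraries overlapped, and in N2 it was at 122 and 134 CPM at L4 and 179 and 186 CPM in adults (log2 fold change 0.51); the stage change was more negative in hira-1(-) by -0.52 (adjusted p = 9.0e-05), with the mutant above N2 at both stages. The gene his-71 was at 74.5 and 75.7 CPM at L4 and 35.8 and 37.6 CPM in adults (log2 fold change -1.03, SE 0.068, adjusted p = 1.1e-08), a fall. The gene his-74 was at 100.5 and 93.98 CPM at L4 and 155 and 159.7 CPM in adults (log2 fold change 0.69, SE 0.05, adjusted p = 2.9e-08), a rise. The gene his-70 was at 16.4 and 17.2 CPM at L4 and 1.93 and 1.54 CPM in adults (log2 fold change -3.27, SE 0.14, adjusted p = 1.7e-10), a fall much like that of N2 (-3.0004; difference adjusted p = 0.3). The remaining gene, his-69, did not pass the filter. Poly(A) selection captures these H3.3 transcripts, but replication-dependent histone transcripts mostly lack the tail, so the latter are measured poorly. Of 66 core histone genes 59 were tested, 6 rose and 15 fell, with a median of -0.11 where N2 had -1.49, and 26 had a more positive and 8 a more negative change than in N2. The identical values of his-19, his-21, his-51 and his-53, at 19.7 and 19.5 CPM at L4 and 10.3 and 9.87 CPM in adults (log2 fold change -0.95, SE 0.11, adjusted p = 3.7e-06) and at 4.93 and 6.03 CPM at L4 and 0.2505 and 0.215 CPM in adults in N2, are 1 set of reads divided among copies. Each such copy entered the counts and the median of the core histone list as a separate member. Of other variants, the centromeric histone genes hcp-3 (1.37) and cpar-1 (1.88), the H2A.Z gene htz-1 (1.16) and the linker histone gene hil-4 (1.14) rose.

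Genes of sex determination and dosage compensation mostly rose: 15 of 19 rose and 1 fell, with a median of 0.85. The gene fem-3, which promotes male fates and sperm, was at 19.2 and 18.6 CPM at L4 and 71.7 and 65.4 CPM in adults (log2 fold change 1.86, SE 0.068, adjusted p = 4.8e-11), with separate stages. The genes fem-2 (1.08), tra-2 (1.03), whose membrane protein promotes female fates, and dpy-28 (1.01), a condensin gene of dosage compensation, rose too. Grouping all genes by the letters of their names gave 156 families with at least 10 tested members, ranked by their median as a description. The highest were the F-box family fbxb, with a median of 4.33 (65 of 72 rose), sdz (3.8, 21 of 25), the T-box factors tbx (3.18, 8 of 11), the RNA-binding pumilio family puf (1.76, 8 of 10), cdk (1.01, 10 of 11) and skr (0.96, 16 of 20). Only tested members are counted, and genes near 0 at L4, as many sdz and tbx genes of the embryo list were, could pass the filter only through the adults, so the high medians and shares are partly fixed by the filter. The lowest were gtnt, with a median of -3.17 (35 of 40 fell), mltn (-3.0, 6 of 10), bus (-2.91, 14 of 14), named for a changed response to a surface-binding bacterium, dbd (-2.69, 11 of 15), the sperm family spe (-2.49, 31 of 34) and dpy (-2.26, 17 of 25).

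Among genes called in both genotypes, most changed in the same direction, and where the difference was called among these, the hira-1(-) change was more often the smaller. The adults' age in hours is not stated, and the labels give no time within L4. Genotype and any difference in age or timing between the groups, at either stage, therefore cannot be told apart here. The difference between the genotypes was called for 8447 genes, 50.4%, with 3467 more positive and 4980 more negative in hira-1(-). This split was 3974 and 4090 with a filter at 1 CPM in 2 libraries, 3911 and 4314 with library totals, 3782 and 3959 without N2 L4 replicate 1, 3180 and 5453 with RLE scaling and 2401 and 4556 with DESeq2. Of 5345 genes called higher in adults of both genotypes, 3171 rose by less and 120 by more in hira-1(-). Of 5504 called lower in both, 2071 fell by less and 763 by more. The standard deviation of the log2 fold changes over all genes was 1.70 in hira-1(-) and 2.36 in N2. When genes with at least 5 CPM were binned by their N2 change, the 615 genes at least 16-fold lower in N2 adults had a median of -6.14 in N2 and -3.18 in hira-1(-), and the difference was called smaller for 564 of them and larger for 1. At the other end, 285 genes at least 16-fold higher had a median of 6.07 in N2 and 3.32 in hira-1(-), with 251 smaller and 1 larger. Bins chosen on N2 values lean toward larger N2 changes, most of all for genes near 0 in 1 stage. The middle bins were closer, at 1.37 and 0.90 for the 1983 genes 2- to 4-fold higher in N2 and at -1.39 and -0.91 for the 1430 genes 2- to 4-fold lower. The difference was called smaller for 1644 and larger for 16 of the former, and smaller for 752 and larger for 279 of the latter. The 541 genes 4- to 16-fold higher had medians of 2.43 in N2 and 1.47 in hira-1(-), with 470 smaller and 10 larger. The 813 genes 4- to 16-fold lower had -2.65 and -2.23, with 424 smaller and 87 larger. The gap thus did not grow evenly with the N2 change.

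**Figure D5:**
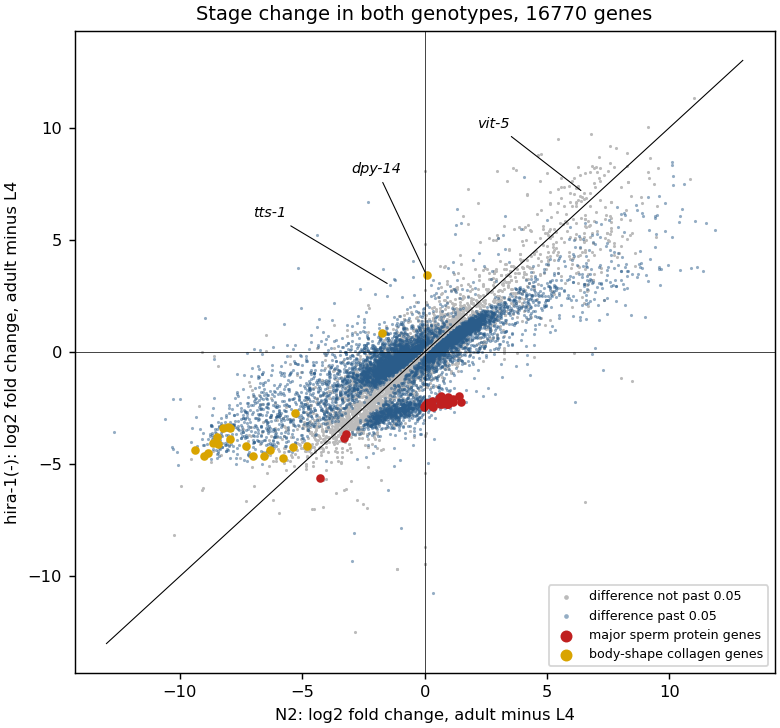
Log2 fold change of adults minus L4 in N2 (horizontal) and hira-1(-) (vertical) for 16770 genes, with genes whose difference was called in blue and the rest in grey; the diagonal marks equal change. The 32 major sperm protein genes (red) lie below the diagonal with negative hira-1(-) values, and 18 of the 20 body-shape collagen genes (yellow) lie above it with the difference called.

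A small set of genes changed in opposite directions. There were 174 genes called higher in hira-1(-) adults and lower in N2 adults, and 195 called the other way, all past the test of the difference. The non-coding RNA gene tts-1 was at 20.8 and 24.5 CPM at L4 and 186 and 169.5 CPM in adults (log2 fold change 2.97, SE 0.14, adjusted p = 3.7e-07). In N2 it was at 5.797 and 6.504 CPM at L4 and 3.13 and 1.61 CPM in adults (log2 fold change -1.403), so its stages were separate in both genotypes and in opposite order. The F-box gene fbxa-24 was at 6.29 and 7.198 CPM at L4 and 36.9 and 36.9 CPM in adults (log2 fold change 2.45, SE 0.11, adjusted p = 2.0e-10), with -0.94 in N2. Also higher in hira-1(-) adults were the lectin gene clec-43 (1.33, N2 -1.65), the astacin gene nas-22 (1.32, N2 -0.96), the aspartyl protease gene asp-12 (1.26, N2 -0.96) and ech-9 (0.995, N2 -1.18), of the enoyl-CoA hydratase family. Of the genes that fell in hira-1(-) and rose in N2, the 6 picked by the size of their changes were msp-65 (-2.24, N2 1.49), msp-55 (-1.94, N2 1.41), nspa-8 (-2.24, N2 1.6998), nsph-4.1 (-2.21, N2 1.45), ssp-19 (-1.61, N2 2.57) and fipr-1 (-1.97, N2 2.38). The names msp and ssp belong to sperm gene families.

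Some changes were called in hira-1(-) and not in N2, with the difference called as well. There were 215 such rises and 356 such falls. The bZIP gene zip-8 was at 0.541 and 0.627 CPM at L4 and 8.16 and 5.95 CPM in adults (log2 fold change 3.58, SE 0.28, adjusted p = 6.8e-08), with an N2 change of 1.18 (adjusted p = 0.052). The secreted protein gene scl-2 was at 51.9 and 40.8 CPM at L4 and 167 and 157 CPM in adults (log2 fold change 1.804, SE 0.14, adjusted p = 1.9e-05), where N2 was at 29.6 and 36.2 CPM at L4 and 29.7 and 25.32 CPM in adults. The stages of hira-1(-) were apart in both genes, and the N2 stages of scl-2 overlapped. Further rises were fipr-22 (3.21), dmsr-2 (1.901), a peptide receptor family gene, and pals-32 (1.59). The nuclear hormone receptor gene nhr-74 was at 6.56 and 6.47 CPM at L4 and 0.519 and 0.678 CPM in adults (log2 fold change -3.44, SE 0.29, adjusted p = 2.2e-07), where N2 was at 5.15 and 7.75 CPM at L4 and 6.596 and 4.73 CPM in adults. The gene nsph-3.1 was at 87.97 and 90.9 CPM at L4 and 13.3 and 14.5 CPM in adults (log2 fold change -2.68, SE 0.091, adjusted p = 1.7e-10), where N2 was at 87.6 and 72.8 CPM at L4 and 86.6 and 92.04 CPM in adults. Further falls were snb-6 (-3.01), msrp-5 (-2.62), msrp-6 (-2.77) and ttbk-8.2 (-2.67). In the other direction 472 rises and 874 falls were called in N2 and in the difference but not in hira-1(-).

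Few tested genes were at 0 in both libraries of a stage. At L4 there were 84 such genes and in adults 32. Besides fkh-3, the largest adult levels among the first were of skr-9, at 0 and 0 CPM at L4 and 5.67 and 3.81 CPM in adults, at least 47.3-fold higher, Y73C8C.8, at 0 and 0 CPM at L4 and 4.04 and 3.504 CPM in adults, at least 37.6-fold higher, and the T-box gene tbx-11, at 0 and 0 CPM at L4 and 3.597 and 3.05 CPM in adults, at least 33.2-fold higher. All were called. Among the genes at 0 in adults, F56A4.2 was at 52.02 and 0 CPM at L4 and 0 and 0 CPM in adults and rested on 1 library (adjusted p = 0.29). The genes F45D11.15 and F45D11.16, which share their values, were at 1.29 and 6.01 CPM at L4 and 0 and 0 CPM in adults (adjusted p = 0.19).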

How the data were processed

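The authors deposited a table of estimated counts per gene, fractional as RSEM produces them from aligned reads. They also deposited the same genes as log2 FPKM values with 1 added, per the deposited values. Tools in the submitters' processing notes are RSEM 1.2.15, Bowtie 1.0.1 and SAMtools 0.1.19, and the build is ce10. Strand use in counting is not stated, so reads of antisense or overlapping genes may be mixed. Of 18 columns, 8 were matched to labels (1 of them spelled with a digit for a letter) and 10 were not used in any step. Gene names come from a WBcel235 table that matched 44080 of 45461 rows; since the builds differ, no coordinates are given. Genes of the mitochondrial genome were not analysed here. One result on a developmental signalling gene is not reported here.

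Rounded counts entered edgeR 4.0.16 under R 4.3.3 (TMM scaling, default filter with a minimum count of 10 and 15 in total, robust quasi-likelihood fit of 4 group means on 8 libraries, 4 residual degrees of freedom, Benjamini-Hochberg over 16770 genes, threshold 0.05). The common biological coefficient of variation was 6.26%. Library totals ran from 26010300 to 31174600. SE is the absolute log2 fold change divided by the square root of F. A gene at 0 in a stage was set against a floor of 3 counts per library, which covers counting error only. Counts were also simulated with 1 mean per gene in all groups and the common dispersion for every gene. Only 200 genes, picked above a minimum count, were changed in hira-1(-) adults. There 94% of 2-fold and 67% of 1.5-fold changes were recovered among 16309 genes, and 11 unchanged genes were called. In the data far more genes changed and the dispersion was fitted gene by gene, so these figures do not carry over to the comparison above.

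Named genes are those with the largest called changes (12 per direction with a gene name, 2 with a sequence name, at least 5 CPM, separate stages), up to 4 per list by adjusted p, all members of lists of 8 or fewer, the largest differences from N2 (8 per direction), opposite changes (6), changes in hira-1(-) without a call in N2 (6), the 8 highest FPKM per stage, and the 4 highest per direction among genes at 0 in a stage; the text gives a subset of these, and gives some members of the embryo and male lists by level only. The comparison, the 52 gene lists and the rules were chosen with earlier results of these data known. Lists are described by counts and medians, with no list test. The alternatives tried were DESeq2 1.42.0, limma 3.58.1 on log2 FPKM, scaling by RLE or by library totals, a filter at 1 CPM in 2 libraries or none, only the groups compared, a replicate block, a 1.5-fold minimum and leaving out each library; a fit without ribosomal RNA genes was added after seeing the data.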

Additional observations from a re-analysis of the deposited data

Results flagged for a closer look

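The stage change differed between hira-1(-) and N2 for 8447 genes by the interaction term of edgeR's fit. The values that follow are differences in log2 fold change, hira-1(-) minus N2, each past an adjusted p of 0.05. A gene at 0 in both N2 libraries of a stage has a difference that depends on the prior count and is no measure of size; this holds for gtnt-17, grd-11, btb-6, sea-1, skr-7 and ssp-37.

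Among the most positive, gtnt-17 differed by 9.15, grd-11 by 7.63, abu-1 by 7.2, idpc-3 by 6.35, idpc-2 by 6.32, abu-14 by 5.78, pqn-63 by 5.78 and idpc-6 by 5.72. In each the N2 level fell, and in hira-1(-) the fall was smaller or not called. Among the most negative, btb-6 differed by -7.75, sea-1 by -6.43, cdc-25.3 by -6.07, skr-7 by -5.76, rgs-9 by -5.76, ssp-37 by -5.21, btb-7 by -5.05 and clec-190 by -4.98. These rose in both genotypes. The phosphatase gene cdc-25.3 was at 2.74 and 2.71 CPM at L4 and 41.9 and 37.6 CPM in adults of hira-1(-) and at 0 and 0.0735 CPM at L4 and 41.04 and 38.99 CPM in adults of N2, so the adult libraries of the genotypes were close and the L4 libraries were apart.

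Genes with opposite changes in the genotypes included tts-1 (4.37), fbxa-24 (3.39), clec-43 (2.98), nas-22 (2.29), asp-12 (2.22) and ech-9 (2.17) on the positive side. On the negative side they included fipr-1 (-4.35), ssp-19 (-4.18), nspa-8 (-3.94), msp-65 (-3.73), nsph-4.1 (-3.66) and msp-55 (-3.36).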

How the results depend on the processing

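The number of genes called between hira-1(-) adults and L4 stayed between 10972 (DESeq2) and 12801 (without 1 N2 L4 library) except with a test against a 1.5-fold minimum, which called 7615 genes, 3474 higher and 4141 lower. For the difference between the genotypes the counts ran from 6957 (DESeq2) to 8633 (RLE scaling), and the 1.5-fold minimum called 3287, with 1653 more positive and 1634 more negative. These minimum-fold counts are smaller by construction. Leaving out 1 library at a time gave 11392 to 12801 genes for hira-1(-) and 7149 to 8092 for the difference. Across genes, replicate numbers showed little pairing of the samples: same-numbered libraries of hira-1(-) deviated with a correlation of 0.0477. A fit with the replicate block called 12480 genes for the stage change and 8461 for the difference. The ribosomal RNA share was higher in replicate 1 than in replicate 2 of every group (in N2, 3.02% and 2.09% at L4 and 1.82% and 0.602% in adults). Whether same-numbered libraries share a batch was therefore not settled. Of 5229 values of 291 named genes under the alternatives, 5130 kept their side of the threshold, and 68 lost and 31 gained a call. Changes of sign were counted only where the main fit or the alternative called the gene, and there were 0. Genes called in neither could change sign, as abu-1 (-0.041 to 0.0015) and his-72 (-0.011 to 0.031) did with RLE scaling. Leaving out hira-1(-) adult replicate 1 ended the call of idpc-2 (adjusted p = 0.0637), and leaving out adult replicate 2 ended those of idpc-6 (adjusted p = 0.0612), pud-1.2 (adjusted p = 0.0531) and klp-6 (adjusted p = 0.0993), the last also lost without L4 replicate 1 (adjusted p = 0.0954). Single hira-1(-) libraries also decided the calls of eef-1A.1, rps-25, rpl-8, rpl-27A, rpl-37A, lipl-5 and the ribosomal RNA gene rrn-3.1. The cause of these losses was not tested. With 2 libraries per stage, the depth of single counts limits genes near 0 at 1 stage. The medians of the seam, lipase, stress, C-type lectin and pals lists were near 0, and no direction is given for them.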

Other observations

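Detoxification and receptor families held smaller, mixed changes in hira-1(-) animals. Of cytochrome P450 genes 16 of 64 rose and 30 fell. The gene cyp-31A2, needed for the eggshell's lipid layer, was at 28.9 and 29.5 CPM at L4 and 100.1 and 96.8 CPM in adults (log2 fold change 1.75, SE 0.054, adjusted p = 1.1e-11), and cyp-31A5 rose as well (1.84), while cyp-42A1 (-2.902) and cyp-35A2 (-1.17), of a drug-inducible group, fell. The stages were separate in each. Of UDP-glucuronosyltransferase genes 12 of 62 rose and 36 fell, with ugt-63 (2.89) among the rises and ugt-57 (-3.86) and ugt-22 (-1.08) among the falls. Of glutathione transferase genes 6 of 38 rose and 17 fell, with gst-6 (-1.67) and gst-10 (-1.49) among the falls. Nuclear hormone receptor genes gave 15 rises and 93 falls among 207 tested of 288 listed. The embryonic receptor gene nhr-2 was at 0.913 and 0.826 CPM at L4 and 22.3 and 19.1 CPM in adults (log2 fold change 4.57, SE 0.15, adjusted p = 2.4e-11), and nhr-114, which supports germ-line function from the intestine, fell (-0.85) where N2 rose (0.46; difference -1.31, adjusted p = 2.7e-08).

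Secreted peptide and lectin genes differed by list. Of 102 neuropeptide genes 5 rose and 46 fell. The antimicrobial-type peptide genes nlp-33 (-1.47) and nlp-30 (-1.86) fell, and nlp-27, another of that cluster's names, was at 18.8 and 19.02 CPM at L4 and 48.7 and 42.1 CPM in adults (log2 fold change 1.26, SE 0.076, adjusted p = 4.8e-09). Insulin-like peptide genes gave 5 rises and 9 falls among 26 tested, with ins-34 (3.36) up and ins-35 (-3.33), ins-37 (-2.198) and ins-27 (-2.13) down. Of C-type lectin genes 52 rose and 58 fell of 168 tested. The gene clec-87 was at 156 and 147 CPM at L4 and 1130.3 and 1083 CPM in adults (log2 fold change 2.87, SE 0.072, adjusted p = 1.5e-12), and clec-88 (2.97) and clec-91 (2.85) rose beside it. Homeobox genes of the ceh names gave 23 rises and 13 falls, with the ONECUT-family genes ceh-38 (1.22), ceh-39 (2.803) and ceh-49 (3.97) among the rises.

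The pud genes stood at low levels in hira-1(-) at both stages. The gene pud-1.1 was at 39.8 and 28.6 CPM at L4 and 20.2 and 21.4 CPM in adults where N2 was at 593 and 676 CPM at L4 and 617 and 691 CPM in adults. The gene pud-3 was at 8.05 and 6.901 CPM at L4 and 11.8 and 9.99 CPM in adults (log2 fold change 0.54, SE 0.11, adjusted p = 5.9e-04) where N2 was at 422 and 396 CPM at L4 and 961 and 876 CPM in adults. No library of the mutant reached the N2 range in either gene. The identical values of pud-2.1 and pud-2.2, 62.7 and 53.4 CPM at L4 and 43.01 and 42.1 CPM in adults, come from reads that cannot be assigned to a copy.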
